A study of Homo sapiens with 8 samples.

Results

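The 54 protein-coding keratin genes are those rows of the deposited table of 57773 genes (20327 of them protein coding) whose name is KRT, a number and at most 1 trailing letter from A to C. Keratin-associated proteins and keratin pseudogenes were left out, as were a pair of rows named KRT222_1 and KRT222_2, whose suffix the naming rule does not allow (KRT222_1 had a mean of 0.668 RPKM). The rule used gene names only and no measured value. Of the 54 keratins, 43 had at least 1 read in at least 1 of the 8 libraries. Only 10 of the 54 reached the mean of 0.5 RPKM over the 8 libraries that was required for testing.

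The libraries were made from ZR-75-1, an established human cell line from a breast tumour that carries the estrogen receptor. All cells were first held for 72 h in medium stripped of steroids. The E2 group (4 libraries) then received 10 nM estradiol for 4 h, and the E2+DHT group (4 libraries) received 10 nM estradiol together with 10 nM dihydrotestosterone, a potent androgen, for 4 h. No library lacked estradiol, so the comparison shows what dihydrotestosterone added to estradiol, in 1 cell line and at 1 time. Groups and replicate numbers follow the library names that head the columns. In 4 of the 8 records the title names the other treatment. By library name the E2 records carry passages 8 and 10 and the E2+DHT records passages 9 and 11, so in these groups treatment and passage cannot be told apart. By title each treatment carries passages 8, 9, 10 and 11, and the passage follows the replicate number in the title. Passages differ within each group, but the labels do not say that libraries of the same passage were separate cultures. Each p-value thus covers the spread among these 8 libraries, which may in part be technical.

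Keratins are the intermediate filament proteins of epithelial cells. Acidic type I and basic type II keratins join as obligate heterodimers, so a cell needs both types to build a filament, and the filaments run from desmosome to desmosome and give a cell sheet its mechanical strength. In the breast, the luminal cells that line the ducts are known for the simple-epithelial keratins KRT8, KRT18, KRT19 and KRT7. The basal and myoepithelial cells beneath them are known for KRT5, KRT14 and KRT17, which is why keratins are used in pathology to tell tumour lineages apart. Type II genes and KRT18 lie in a cluster on chromosome 12, and the other type I genes lie in a cluster on chromosome 17. The deposited coordinates put 26 type II genes and 1 type I gene on chromosome 12, while 27 type I genes were on chromosome 17.

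RPKM (reads scaled to exon length and to the reads of the library) is a level per length. Comparing levels of different keratins thus depends on the exon lengths behind the values. Whether these lengths fit the RNA of these cells was not tested. Whole reads were recovered from the steps of the RPKM values, and the libraries behind them held 19599217 to 34616639 reads, of which 78.3% to 84.8% lay in exons of the table. The share in exons was 78.3% to 83.7% in E2 and 83.2% to 84.8% in E2+DHT. Other markers of luminal breast epithelium were present, with mean levels of 150 RPKM for the adhesion protein CDH1, 69.3 for EPCAM, 43.8 for FOXA1, 22.0 for GATA3 and 6.17 for ESR1. Of the other cell types, the defining markers were near 0. The basal transcription factor TP63 had a mean of 0.0209 RPKM, the smooth muscle protein CNN1 of myoepithelial cells 0.00133, and VIM, the intermediate filament of fibroblasts, 0.0184. In bulk RNA, fewer cells of a type and less RNA per cell cannot be told apart.

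KRT19, KRT8 and KRT18 together made up nearly all keratin RNA, 98.0% to 98.5% of the summed keratin RPKM in each library. They were among the most abundant transcripts of nuclear protein-coding genes. By mean RPKM KRT19 ranked 4 among 20314 protein-coding genes of the nuclear genome, KRT8 ranked 9 and KRT18 ranked 13. All 54 keratins together took 1.22% to 1.55% of the summed RPKM of nuclear protein-coding genes in the E2 libraries and 1.40% to 1.62% in the E2+DHT libraries.

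**Figure D1:**
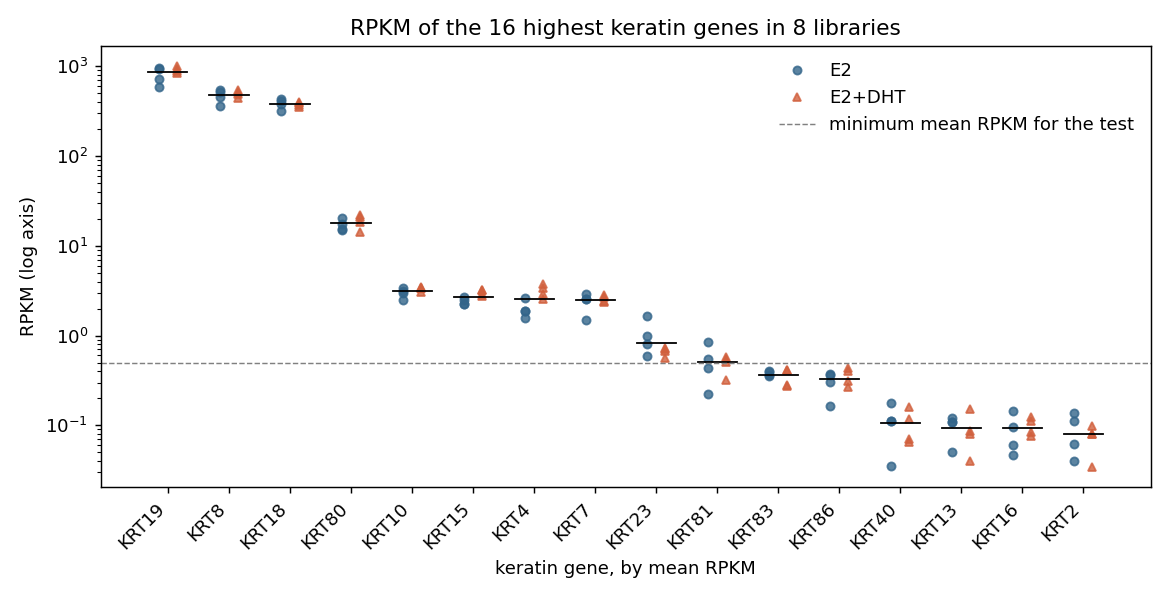
RPKM on a log axis of the 16 keratin genes with the highest mean, ordered by that mean. Circles are the 4 E2 libraries, triangles the 4 E2+DHT libraries and horizontal bars the mean of all 8. KRT19, KRT8 and KRT18 lie above 300 RPKM in every library, KRT80 lies between 14.3 and 21.9, and 6 further genes lie near or above the dashed line at 0.5.

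In RPKM the order of levels was clear at the top and less so below. KRT19 was higher than KRT8 in 8 of 8 libraries, with no overlap between their ranges. This order depends on the recovered exon lengths, 2336 bases for KRT19 and 5005 for KRT8. By reads over all libraries KRT8 had more, 532281 against 444976 for KRT19. KRT8 was higher than KRT18 in 8 of 8 libraries, although the ranges over libraries overlapped. KRT18 exceeded KRT80, the next, by a factor of 21.2, and KRT80 exceeded KRT10 by a factor of 5.70, both without overlap. KRT10, KRT15, KRT4 and KRT7 followed with means of 3.16, 2.72, 2.57 and 2.47 RPKM. Their ranges overlapped, and KRT15 was above KRT4 in only 5 of 8 libraries and KRT4 above KRT7 in only 5 of 8. KRT23 (0.837 RPKM) and KRT81 (0.504 RPKM) were the lowest of the tested keratins.

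KRT19 (chromosome 17, 39679869 to 39684560, minus strand, hg19 as all table coordinates here) is the smallest type I keratin and lacks the tail domain of the others. It measured 955, 593, 927 and 718 RPKM in E2 replicates 1 to 4 and 1007, 833, 881 and 943 RPKM in E2+DHT replicates 1 to 4. E2 replicates 2 and 4 were the lowest of the 8, and the other 6 libraries of both treatments overlapped. The means were 798 ± 173 and 916 ± 75.7 RPKM (SD, n = 4 per group). On the log2 scale E2+DHT exceeded E2 by 0.22, with a 95% interval from -0.12 to 0.56 (limma adjusted p = 0.999). Without E2 replicate 2 the difference was 0.088, and with groups from the titles it was 0.055. It rested on 34341 to 81462 reads per library.

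KRT8 (chromosome 12, 53290977 to 53343738, minus strand) is the type II partner of KRT18 and KRT19. It measured 511, 362, 549.9 and 449 RPKM in E2 and 515, 447, 486 and 544 RPKM in E2+DHT. All E2+DHT values lay within the range of the E2 values, and E2 replicate 2 was again the lowest. E2+DHT minus E2 was 0.10 on the log2 scale, with a 95% interval from -0.19 to 0.40 (limma adjusted p = 0.999).

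KRT18 (chromosome 12, 53342655 to 53346685, plus strand) measured 407, 319, 429 and 381 RPKM in E2 and 353, 369, 401 and 390.4 RPKM in E2+DHT. Both the highest and the lowest of the 8 values were E2 libraries. The log2 fold change was -0.015, with a 95% interval from -0.25 to 0.22 (limma adjusted p = 1.00). In folds the intervals ran from 0.920 to 1.48 for KRT19, from 0.876 to 1.32 for KRT8 and from 0.843 to 1.16 for KRT18.

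E2 replicate 2 had the lowest value of all 8 libraries for KRT8, for KRT18 and for KRT19, and it also had the lowest share of reads in exons (78.3%). Relative to nuclear protein-coding RPKM it was still the lowest for KRT19 and for KRT8. KRT19 took 0.555% of that sum in E2 replicate 2 and 0.628% to 0.818% in the other 7 libraries. KRT8 took 0.339% there and 0.372% to 0.459% elsewhere. Whether the share of reads in exons had a part in these differences was not tested.

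**Figure D2:**
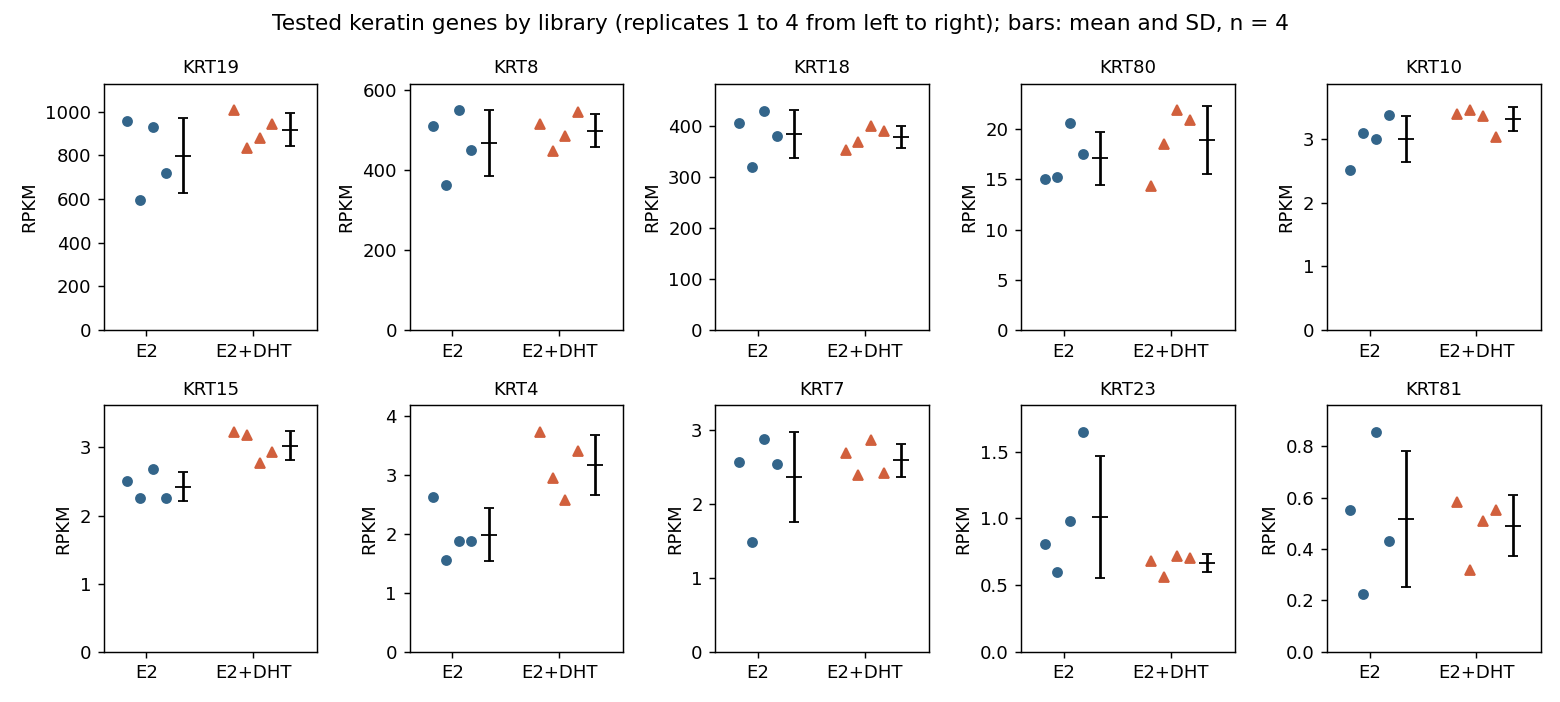
RPKM in each library for the 10 tested keratin genes, each panel on its own linear axis from 0. Circles are E2 and triangles E2+DHT, replicates 1 to 4 from left to right, and the bars give the mean and SD (n = 4). The groups overlap in every panel except KRT15, where E2 lies between 2.25 and 2.68 and E2+DHT between 2.77 and 3.23.

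Because keratins pair, the balance of both types was followed per library. Type II keratins made up 28.0%, 29.3%, 29.7% and 29.9% of keratin RPKM in E2 and 28.2%, 28.0%, 28.5% and 29.9% in E2+DHT. The shares of both treatments thus spanned the same range, from 28.0% to 29.9%. KRT8 stood at 0.371 to 0.409 times the sum of KRT18 and KRT19 in the 8 libraries, and summed RPKM of type I exceeded that of type II throughout. Like the shares, these values depend on the exon lengths behind RPKM. The KRT8 to KRT18 ratio was 1.26, 1.13, 1.28 and 1.18 in E2 and 1.46, 1.21, 1.21 and 1.39 in E2+DHT, with overlapping groups. The KRT19 to KRT18 ratio was 2.35, 1.86, 2.16 and 1.88 in E2 and 2.86, 2.25, 2.20 and 2.42 in E2+DHT. These ratios also overlapped, since E2 replicate 1 lay above 2 of the E2+DHT libraries. They are descriptions over chosen members and carry no test.

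The spans of KRT8 and KRT18 overlap head to head over 1084 bases (53342655 to 53343738) on opposite strands. Whether reads were assigned by strand is not given in the sources used here, so reads from the shared stretch could be split between both genes. Both genes have many processed pseudogenes, 50 named for KRT8 and 67 for KRT18 in the table. Reads assigned to these amounted to 0.0581% of the reads of KRT8 and 0.0848% of those of KRT18. The highest was KRT8P12 at a mean of 0.789 RPKM. How the authors treated reads that map to several places is not given in the sources used here.

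KRT7 and KRT20 complete the simple-epithelial set. KRT7, the type II keratin of many glandular ducts, measured 2.56, 1.48, 2.88 and 2.53 RPKM in E2 and 2.68, 2.39, 2.86 and 2.41 RPKM in E2+DHT. All E2+DHT values lay within the range of the E2 values, and E2 replicate 2 was the lowest (log2 fold change 0.14, 95% interval -0.20 to 0.47, limma adjusted p = 0.999). Its 3′ end overlaps the span of KRT86 on the same strand over 2887 bases. KRT20, a keratin of the gut lining, had 2 reads over all 8 libraries.

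KRT80 (chromosome 12, 52562780 to 52585784), a type II keratin found in many epithelia, was the only other keratin above 10 RPKM. It measured 15, 15.2, 20.6 and 17.5 RPKM in E2 and 14.3, 18.5, 21.9 and 20.9 RPKM in E2+DHT. Replicate 1 was the lowest and replicate 3 the highest in both treatments, and the treatments overlapped (log2 fold change 0.14, 95% interval -0.17 to 0.45, limma adjusted p = 0.999). Grouped by record titles, which sets replicates 1 and 2 of both treatments against replicates 3 and 4, it had 15.8 ± 1.86 and 20.2 ± 1.91 RPKM (SD, n = 4 per group). With that grouping the fold change was 0.35 on the log2 scale (unadjusted p = 0.00448, limma adjusted p = 0.868).

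The keratins of basal cells were almost absent. Of the 8 keratins of basal, activated or stem cells, 7 had a mean under 0.1 RPKM. KRT5 had 3 reads over all 8 libraries, KRT14 had 4, KRT17 had 2, KRT6A 1, KRT6B 1 and KRT6C 3. KRT16, which epidermal cells raise after wounding, had 41 reads and a range of 0.0472 to 0.145 RPKM. The shortest exon length that gave whole reads was used to recover them, so that such small numbers may be too low. KRT6A, KRT6B and KRT6C are near copies of each other, and KRT17 lies within the span of JUP on the same strand in the table, so their few reads cannot be placed with confidence.

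KRT15, a type I keratin of basal layers and of stem cells of the hair follicle, was the exception. It measured 2.51, 2.25, 2.68 and 2.25 RPKM in E2 and 3.23, 3.18, 2.77 and 2.93 RPKM in E2+DHT. Every library named E2+DHT lay above every library named E2, while grouping by record titles turned the log2 fold change to -0.054. The means were 2.42 ± 0.212 and 3.03 ± 0.219 RPKM (SD, n = 4 per group). The difference on the log2 scale was 0.27 (SE 0.0773, 95% interval 0.10 to 0.45). Its unadjusted p was 0.00525, but over all 11375 genes tested it did not pass (limma adjusted p = 0.439). Over all tested genes, the groups did not overlap in 3.4%, and among the 10 tested keratins they did not overlap in KRT15 alone.

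The span of KRT15 (chromosome 17, 39669995 to 39678781, minus strand) begins 1088 bases beyond the 3′ end of KRT19, on the same strand. KRT15 stood at 0.263% to 0.379% of the level of KRT19 in E2 and at 0.311% to 0.382% in E2+DHT, and these shares overlapped. Any part of KRT19 in the level of KRT15 was not tested.

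KRT4 (chromosome 12, 53200333 to 53208335, minus strand), the type II keratin of the moist lining of mouth and oesophagus, had the largest fold change among the tested keratins. It measured 2.63, 1.56, 1.88 and 1.87 RPKM in E2 and 3.73, 2.94, 2.57 and 3.41 RPKM in E2+DHT. All E2+DHT libraries were above 3 of the E2 libraries, and E2 replicate 1 lay just above E2+DHT replicate 3. Grouping by record titles turned the log2 fold change to -0.12. The means were 1.99 ± 0.454 and 3.16 ± 0.513 RPKM (SD, n = 4 per group), a ratio of 1.59. That is a log2 difference of 0.57 (SE 0.137, 95% interval 0.26 to 0.87). Its unadjusted p was 0.00196, rank 86 among the 11375 genes tested, and it did not pass after adjustment (limma adjusted p = 0.256). The value rested on 124 to 428 reads per library.

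Of the 10 tested keratins 0 passed the threshold of an adjusted p under 0.05 (limma), against 0.185% of all 11375 genes tested. There were 0 higher, against 0.176% of all genes, and 0 lower, against 0.00879%. At an unadjusted p under 0.05 there were 2, KRT4 and KRT15, both higher in E2+DHT, against 4.47% of all genes tested in either direction and 2.87% higher. The same threshold gave 0 keratins when limma's voom weighting was run on the recovered reads. With replicate number added to the model as a block, KRT4 passed (limma adjusted p = 0.0143). With that block 72 of all genes tested passed, against 21 without it. The replicate numbers did not meet the criterion for pairs given in the last section. The sign of the change was positive in 7 of the 10 keratins, with a median of 0.13, and in 6402 of all 11375 genes, with a median of 0.014.

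**Figure D3:**
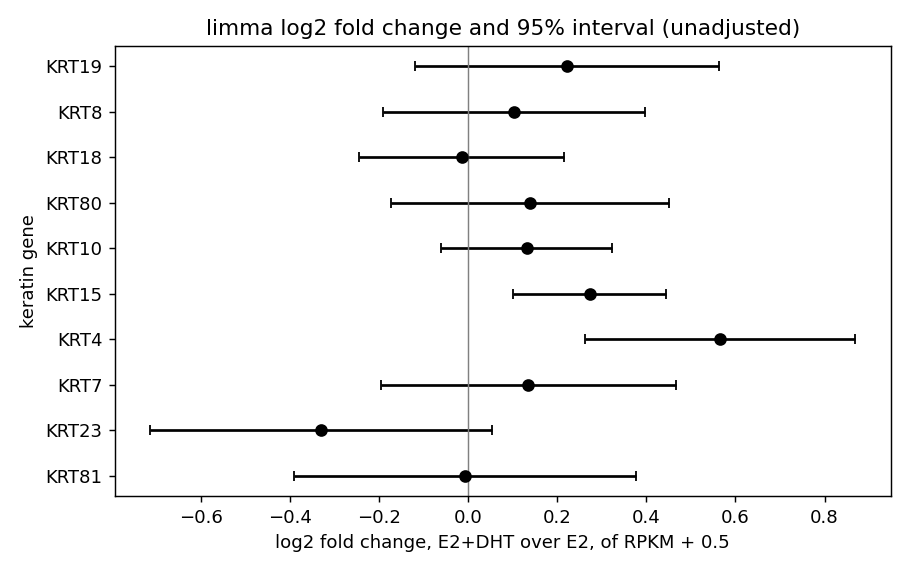
Log2 fold change of E2+DHT over E2 of RPKM + 0.5 for each tested keratin gene (points), with limma's 95% interval, not adjusted for the number of genes (bars). The intervals of KRT4 and KRT15 lie above 0 and those of the other 8 genes include it.

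The other suprabasal, mucosal and corneal keratins were low except KRT10. KRT10, the type I keratin of differentiating epidermis, measured 2.51, 3.10, 3.00 and 3.38 RPKM in E2 and 3.40, 3.46, 3.37 and 3.04 RPKM in E2+DHT. E2 replicate 1 was the lowest, and E2 replicates 2 and 4 lay within the range of E2+DHT (log2 fold change 0.13, 95% interval -0.060 to 0.32, limma adjusted p = 0.999). KRT10 overlaps TMEM99 over 3490 bases on the opposite strand, a gene at 3.54 ± 0.594 RPKM under E2 and 3.62 ± 0.602 under E2+DHT (SD, n = 4 per group). Without knowledge of strand in the counting, the reads of both cannot be separated. Of the 11 genes of this class, 9 were below the minimum, led by KRT13 at a mean of 0.0930 RPKM and KRT2, a keratin of the upper epidermis, at 0.0806 RPKM.

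KRT23, a type I keratin of glandular tissue, measured 0.810, 0.595, 0.984 and 1.65 RPKM in E2 and 0.677, 0.563, 0.720 and 0.702 RPKM in E2+DHT. E2 replicate 4 was far above the rest, while E2 replicate 2 lay among the E2+DHT libraries. The change was -0.33 on the log2 scale, with a 95% interval from -0.71 to 0.054 (limma adjusted p = 0.999), and without E2 replicate 4 it was -0.14.

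Hair keratins were near or below the minimum. Of 17 hair shaft keratins, 5 were listed at 0 in all libraries and 11 others were below the minimum. KRT81, KRT83 and KRT86, near copies of each other at the start of the chromosome 12 cluster, had means of 0.504, 0.362 and 0.329 RPKM, so that KRT81 fell just inside the minimum and KRT83 and KRT86 just outside. KRT81 lies wholly within the span of KRT86 on the opposite strand, and its reads and those of its copies are uncertain. KRT81 measured 0.552, 0.224, 0.857 and 0.430 RPKM in E2 and 0.584, 0.317, 0.511 and 0.552 RPKM in E2+DHT, from 11 to 39 reads per library. The E2 libraries enclosed the E2+DHT range (log2 fold change -0.0071, 95% interval -0.39 to 0.38, limma adjusted p = 1.00). KRT40 followed at 0.106 RPKM. Of 9 root sheath keratins, 6 were listed at 0 and the others had 4 reads in all. A count of 0 allows up to 3 reads in a library, and this limit covers counting error only. Among 93 keratin-associated protein genes, whose products embed the hair keratins, the highest mean was 0.0316 RPKM (KRTAP21-2) and 0 reached the minimum.

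Neighbours in the gene clusters differed widely in level. KRT8 had a mean of 483 RPKM, and KRT78, its neighbour 48101 bases away, had 3 reads in all. KRT19 had 857 RPKM, and KRT9, its neighbour on the far side from KRT15 at 37536 bases, had 12 reads in all. On chromosome 12 the expressed genes lay at both ends of the cluster, KRT80 and KRT7 at one end and KRT4, KRT8 and KRT18 toward the other. From KRT85 to KRT3 no gene reached a mean of 0.1 RPKM. On chromosome 17 KRT15 and KRT19 were neighbours, while KRT10 and KRT23 stood among genes below the minimum.

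**Figure D4:**
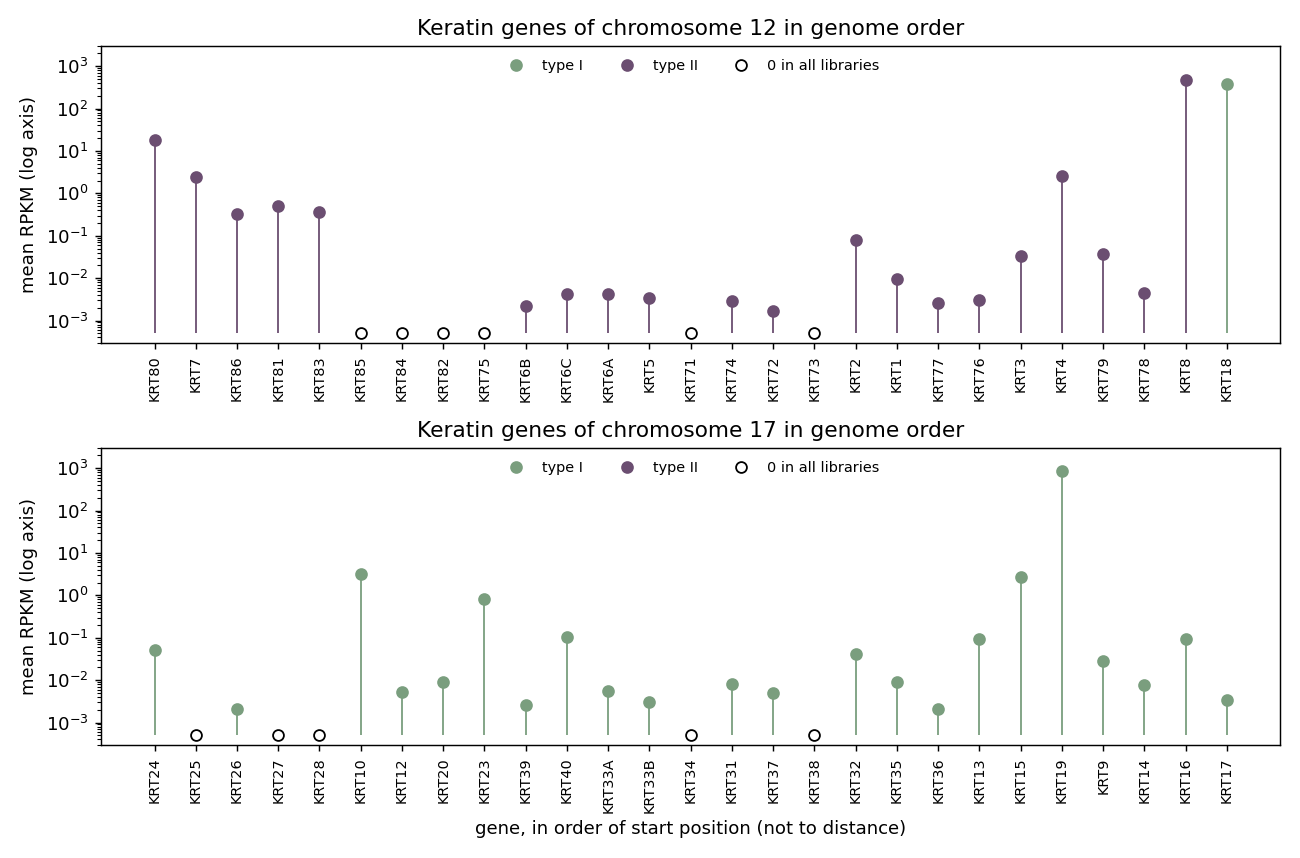
Mean RPKM over 8 libraries on a log axis for all 54 keratin genes in genome order on chromosome 12 (top) and chromosome 17 (bottom), type I and type II in different colours. Open circles at the foot mark the 11 genes listed at 0 in all libraries. KRT8 and KRT18 stand next to each other at the end of the chromosome 12 cluster at 483 and 381 RPKM.

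The levels were also set against textbook pairs, of which KRT10, KRT4 and KRT15 had a partner with a mean below 0.1 RPKM. KRT8 at 483 RPKM faced KRT18 at 381 and KRT19 at 857. KRT10 had 3.16 RPKM while KRT1, its usual partner in epidermis, had 0.00957 RPKM (4 reads). KRT4 had 2.57 RPKM while KRT13, its usual partner in mucosa, had 0.0930 RPKM (59 reads over 8 libraries). KRT15 had 2.72 RPKM, and KRT5, the main type II keratin of basal cells, had 0.00347 RPKM (3 reads). KRT8 was the type II keratin of highest level in these cells.

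**Figure D5:**
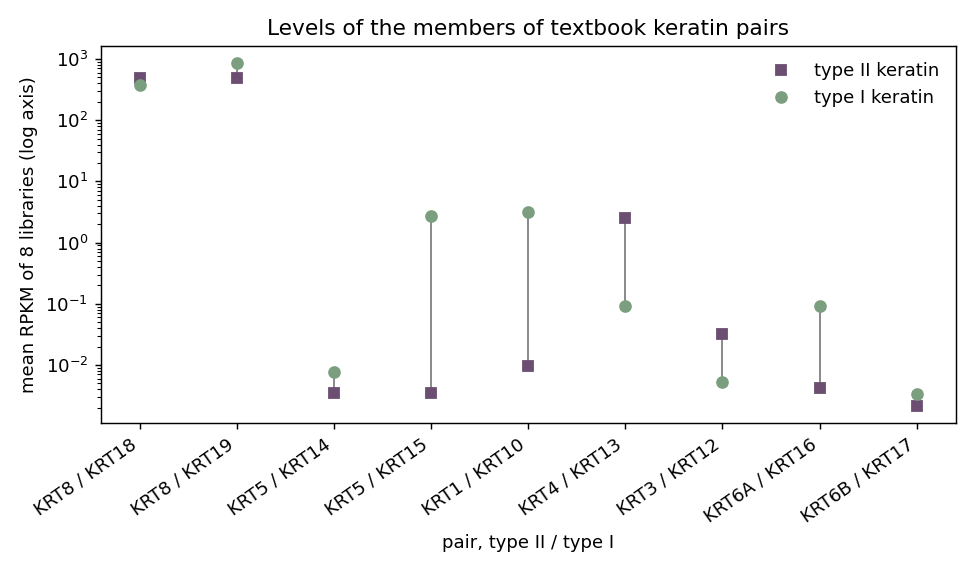
Mean RPKM over 8 libraries on a log axis of the type II (square) and type I (circle) member of 9 textbook keratin pairs, joined by a line. The members of KRT8/KRT18 and KRT8/KRT19 lie close together at 381 to 857 RPKM, while in KRT5/KRT15, KRT1/KRT10 and KRT4/KRT13 the expressed member has a partner below 0.1 RPKM.

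Start-site sequences were matched by symbol to RefSeq (GRCh38.p14), from 250 bases before to 50 bases after each gene's start, for 34 of the 54 keratins, of which KRT4, KRT8 and KRT10 were tested. The KRT8 window lies 23391 bases inside the RefSeq gene from its 5′ end and is not printed. The letters TATAAA, on either strand, were in 20 of the 34 (58.8%) and in 3264 of all 27305 such windows. The letters GGGCGG of the GC box were in 6 (17.6%) against 44.6%. The androgen receptor half-site AGAACA was in 5 (14.7%) against 14.9%, and inverted repeats of AGAACA (the full androgen response element) and of GGTCA (the estrogen response element), each with a spacer of 3 bases, were in 0 of 34 against 0.00366% and 0.0659%. The half-site is part of the full androgen element. The windows of KRT10, KRT4 and KRT5 are printed, since KRT4 had the largest fold change, KRT10 was the highest of those with TATAAA, and KRT5 is the basal keratin at 3 reads. Capitals mark TATAAA in KRT10 and the reverse complement of AGAACA in KRT5, and KRT4 holds none of the 5 motifs. A match is letters only and no evidence of binding.
KRT10 (chr17:40822565-40822864, minus strand): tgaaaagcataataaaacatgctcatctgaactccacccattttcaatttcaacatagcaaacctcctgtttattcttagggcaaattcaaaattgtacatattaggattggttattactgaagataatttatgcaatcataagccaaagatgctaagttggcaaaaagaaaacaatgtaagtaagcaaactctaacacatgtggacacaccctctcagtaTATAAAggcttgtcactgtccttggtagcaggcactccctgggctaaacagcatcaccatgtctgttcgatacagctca
KRT4 (chr12:52814067-52814366, minus strand): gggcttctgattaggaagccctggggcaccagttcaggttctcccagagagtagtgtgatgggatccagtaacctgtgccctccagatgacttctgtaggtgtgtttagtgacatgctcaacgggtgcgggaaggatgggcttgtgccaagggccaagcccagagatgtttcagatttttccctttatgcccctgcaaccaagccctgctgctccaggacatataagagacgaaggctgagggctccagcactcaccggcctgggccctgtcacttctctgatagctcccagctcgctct
KRT5 (chr12:52520345-52520644, minus strand): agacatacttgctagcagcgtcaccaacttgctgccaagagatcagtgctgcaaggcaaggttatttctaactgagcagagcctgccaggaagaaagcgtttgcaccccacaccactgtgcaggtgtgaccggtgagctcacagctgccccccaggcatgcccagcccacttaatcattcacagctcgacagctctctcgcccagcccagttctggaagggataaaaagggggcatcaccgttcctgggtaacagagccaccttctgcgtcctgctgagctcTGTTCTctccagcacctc

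In the KRT10 window TATAAA starts 29 bases before the start site. KRT4 holds neither full receptor element in this window, but nor do nearly all windows (0.00366% and 0.0659% hold them). Elements outside the window were not searched, and control of KRT4 by either receptor was not tested.

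Not all genes for the proteins that hold keratin filaments to desmosomes and to each other reached the minimum, and those tested did not pass. Of 24 genes of the desmosome and keratin-binding list 15 were tested, 0 rose and 0 fell (limma, against 0.185% of all genes called in either direction), with a median log2 fold change of 0.016 against 0.014 over all genes. The highest were JUP (plakoglobin, 37.3 ± 5.48 RPKM in E2 and 41.1 ± 4.61 in E2+DHT), PERP (26.4 ± 2.22 and 24.8 ± 1.15) and PLEC (plectin, 17.1 ± 4.21 and 17.9 ± 3.33; SD, n = 4 per group). At an unadjusted p under 0.05, which 4.47% of all genes reached, there was 1, DST (dystonin), with 3.20 ± 0.385 RPKM in E2 against 2.68 ± 0.310 (SD, n = 4 per group, limma adjusted p = 0.999).

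Of 17 other intermediate filament genes 6 were tested, 0 rose and 0 fell (limma, against the same 0.185%), with a median log2 fold change of -0.043. The lamins of the nuclear envelope led, with 38.4 RPKM for LMNA, 15.8 for LMNB1 and 10.4 for LMNB2. BFSP1, filensin of the eye lens, was the 1 with an unadjusted p under 0.05, against 4.47% of all genes (1.47 ± 0.177 RPKM in E2 and 1.17 ± 0.0834 in E2+DHT, SD, n = 4 per group, limma adjusted p = 0.799).

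Among 24 regulators of keratin genes and filaments 19 were tested, 1 rose and 0 fell (limma), against 0.176% higher and 0.00879% lower of all genes. Their median log2 fold change was 0.083. EHF, an epithelial ETS transcription factor, rose from 16.9 ± 0.878 to 24.7 ± 1.95 RPKM (SD, n = 4 per group, log2 fold change 0.53, limma adjusted p = 0.0246). Its direction held without any single library, but its adjusted p then stayed under 0.05 only without E2 replicate 1 and reached 0.141 without E2+DHT replicate 2 (limma). With no level filter the limma adjusted p of EHF was 0.0807, and with groups taken from the titles its log2 fold change turned to -0.12. KLF5, a transcription factor of epithelial progenitors, stood at 6.80 ± 0.669 RPKM under E2 and 8.72 ± 0.422 under E2+DHT (SD, n = 4 per group, limma adjusted p = 0.212). GRHL2, which maintains epithelial identity, had 19.1 ± 1.29 and 23.7 ± 1.79 RPKM (SD, n = 4 per group, limma adjusted p = 0.304). The values of EHF, KLF5 and GRHL2, the last 2 named after their values were seen, did not overlap between treatments, which held for 3.4% of all genes tested. HSPB1, a small heat shock protein that associates with keratins, was the highest at 68.3 ± 6.96 and 79.5 ± 11.0 RPKM (SD, n = 4 per group, limma adjusted p = 0.999), followed by ELF3 at a mean of 23.4 and GATA3 at 22.0 RPKM.

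Of 9 luminal markers, KRT8, KRT18, KRT19 and KRT7 among them, 9 were tested and 0 passed (limma). Of all genes tested 0.185% passed in either direction, the share to set beside each count of 0 in this paragraph. At an unadjusted p under 0.05 there was 1, the estrogen receptor ESR1, with 6.82 ± 0.792 RPKM in E2 and 5.52 ± 0.525 in E2+DHT (SD, n = 4 per group, limma adjusted p = 0.761). Of 14 basal or myoepithelial markers 6 were tested and 0 passed (limma), and their summed level was 26.3 to 34.1 RPKM in E2 and 30.2 to 31.6 in E2+DHT. That sum came mostly from the cadherin CDH3 (12.7 RPKM) and the laminin chains LAMB3 (7.01) and LAMA3 (3.53). Of 10 squamous or cornified markers 3 were tested and 0 passed, with sums of 5.37 to 7.69 and 6.17 to 7.86 RPKM, and FLG and CRNN were listed at 0. Of 8 fibroblast markers 1 was tested and 0 passed, with sums of 0.929 to 1.13 and 0.894 to 1.35 RPKM.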

How the data were processed

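RNA-seq libraries of ZR-75-1 cells were compared, 4 with E2 and 4 with E2+DHT. The authors deposited RPKM values for 57773 genes. Per the labels' protocols the libraries were stranded total RNA, read as paired ends. The build was hg19, per the submitters' processing notes. Aligner, counting tool and annotation version: not given in the sources used here. The deposited table's gene length column is the genomic span and was not used as exon length.

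Each value was written as whole reads divided by 1 exon length and by 1 denominator per library, which held for 27593 of 27594 expressed genes at a tolerance of 0.0001 reads. Reads ranged from 16389073 to 29224127 in exons per library. Values were tested as log2(RPKM + 0.5) with limma 3.58.1 in R 4.3.3 (intensity trend, two-sided, Benjamini-Hochberg, threshold 0.05) on all 11375 genes with a mean RPKM of at least 0.5. This scale understates changes of low genes. Tables and plots used Python 3.11.15, pandas 2.3.3, NumPy 2.4.6 and matplotlib 3.10.9. The test was tried on simulated data. The alternatives were another pseudocount (0.1 or 1), no level filter or a mean of at least 2 RPKM, median centring, voom with TMM factors, a replicate block, groups from record titles, the 4 records whose labels agree, and single libraries left out.

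The keratins, lists and tests were chosen with earlier results of these data known. Named are all keratins with a mean of at least 0.5 RPKM, with every library given for the 10 highest, the 5 next highest, and of each partner list the 3 highest tested members and any past the threshold. DST, BFSP1, ESR1 between treatments, EHF under the alternatives, KLF5 and GRHL2, the read counts of other low keratins, and the textbook pairs were added after values were seen. The self-made classes follow background knowledge. Counting intervals cover counting error only.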

Additional observations from a re-analysis of the deposited data

Results flagged for a closer look

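In 34 groups of 4 libraries (10 tested keratins and 7 library measures in each treatment), 1 held a library far from the other 3, where chance gives about 1 in 20 groups. It was the level of KRT15 as a percentage of that of KRT19 in E2+DHT, 0.382% in replicate 2 and 0.311% to 0.321% in the others.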

How the results depend on the processing

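Counts of all genes past the threshold, 21 as reported, were 5 with no filter, 33 with median centring, 40 with voom, 72 with the replicate block, 2 when titles set the groups, and 6 to 18 without single libraries. Using only the 4 agreeing records, limma called 0, and 286 had an unadjusted p under 0.05. Keratins past the threshold stayed at 0 higher and 0 lower under every alternative but the replicate block, where KRT4 passed (1 higher; log2 fold change 0.57, limma adjusted p = 0.0143). Deviations of same-numbered libraries correlated at 0.703, 0.455, 0.121 and 0.0833 for replicates 1 to 4. E2 replicates 1, 2 and 3 matched the E2+DHT library of their own number best, while E2 replicate 4 matched E2+DHT replicate 2 best. Numbers were not taken as pairs, which asked for a correlation over 0.1 in all 4. Without single libraries the limma adjusted p of KRT4 ran from 0.0702 (without E2 replicate 1) to 0.737, and its log2 fold change from 0.48 to 0.68. KRT15 ran from 0.24 to 0.32.

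When titles set the groups, the log2 fold change turned to -0.12 for KRT4, -0.054 for KRT15, 0.15 for KRT18, 0.35 for KRT23 and 0.25 for KRT81, and to -0.12 for EHF. The mean type II share in E2+DHT minus E2 moved from -0.58 to 1.13 percentage points, and the KRT8 to KRT18 ratio difference from 0.11 to 0.0019. With the 4 agreeing records it turned to 0.13 for KRT18, 0.016 for KRT23 and 0.24 for KRT81. KRT81 also turned to 0.022 with a pseudocount of 0.1 and to 0.069 with voom. Without single libraries KRT19 ran from 0.088 to 0.32, KRT80 from 0.063 to 0.26, KRT10 from 0.061 to 0.18, KRT8 from -0.015 to 0.19, KRT18 from -0.10 to 0.041, KRT7 from -0.033 to 0.22, KRT81 from -0.16 to 0.14 and KRT23 from -0.47 to -0.14. EHF, examined this way after the data were seen, ran from 0.49 to 0.57 (limma adjusted p 0.0391 to 0.141), and with no filter its adjusted p was 0.0807. The cause was not tested.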
